A study of Mus musculus with 18 samples.

Results

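The 9 genes described here belong to the PI3K, Foxo3 and mTOR pathway, which controls whether mouse oocytes stay at rest in the primordial follicle or are activated. They are *Foxo3*, *Tsc1*, *Tsc2*, *Mtor*, *Rptor*, *Akt1*, *Pik3ca*, *Pdpk1* and *Cdkn1b*, chosen by gene symbol, and each symbol matched 1 of the 28252 genes of the TPM table and, by its Ensembl identifier, 1 of the 53715 genes of the count table. RNA was sequenced from 18 libraries of C57Bl/6j x CBA/J oocytes, 3 in each of 6 groups, covering 3 stages (primordial follicle, primary follicle and metaphase II, MII), and each stage was taken both *in vivo* and *in vitro*. In the *in vivo* groups, primordial and primary follicles came from ovaries that were not cultured and were fixed at 14 days of age. In the *in vitro* groups, ovaries of 7-day-old mice were cultured for 7 days before fixation. The medium held serum, insulin and recombinant follicle-stimulating hormone (FSH). MII oocytes of the *in vivo* group came from adult mice after hormone stimulation. Those of the *in vitro* group came from cultured ovaries, whose secondary follicles were grown for a further 12 days in alginate, again with FSH. Ovulation was then induced in the dish. The primordial and primary oocytes were taken from stained paraffin sections by laser capture microdissection (LCM), which lifts chosen cells off a section with a laser, and the RNA of each stage was pooled, amplified and made into libraries with an exome capture kit. MII libraries were made from 10 oocytes each by Smart-seq II, so a difference of MII from LCM libraries may be one of stage or of library preparation, which cannot be told apart, and the 2 kinds were not compared by a test.

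In a primordial follicle the oocyte rests until the PI3K pathway is switched on. The PI3K catalytic subunit p110α, encoded by *Pik3ca*, makes a membrane lipid that brings the kinases PDPK1 and AKT1 together, and activated AKT phosphorylates FOXO3, which then leaves the nucleus and no longer holds the oocyte at rest. AKT also inhibits the TSC1-TSC2 complex, the brake on mTOR complex 1, in which MTOR is the kinase and RPTOR the scaffold that recruits its substrates. *Cdkn1b* encodes p27, a cyclin-dependent kinase inhibitor that also restrains follicle activation. Much of this control acts on phosphorylation and on the location of proteins, which RNA levels do not measure.

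LCM libraries held 15149564 to 29205503 counts in total and MII libraries 7334817 to 9978830. A gene was taken as detected in a library above 3 counts, and by this measure 4842 to 11710 genes were detected per LCM library and 13238 to 15488 per MII library. LCM libraries of 1 group differed widely: the common biological coefficient of variation, edgeR's measure of the relative spread between replicates, was 2.02 in the LCM fit and 0.726 in the MII fit. Oocyte markers were present in every group. The 13 oocyte markers summed to 323 to 2017 TPM (the deposited transcript level, scaled for gene length and library size) in the LCM libraries and to 10438 to 20954 TPM in the MII libraries. Markers of the surrounding cells were also found in the LCM libraries, where 12 granulosa cell markers summed to 83.3 to 2595 TPM and 10 stroma or theca cell markers to 453 to 30499 TPM. In the MII libraries the same lists summed to 25.1 to 72.7 TPM and 1.39 to 5.02 TPM. The sections hold oocytes surrounded by such cells, and how much of a dormancy gene's RNA came from them was not tested.

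Expression of the dormancy genes was not called different in any of 8 comparisons. A call needed both a fold change of 2 or more and, in the quasi-likelihood test of edgeR over all genes, a Benjamini-Hochberg adjusted p under 0.05. Of the 9 genes, 0 were called between *in vitro* and *in vivo* in primordial oocytes (background over all genes 0.0326%), 0 in primary oocytes (background 0%) and 0 in MII oocytes (background 0.35%). Between primary and primordial oocytes, 0 were called *in vivo* (background 0.0522%) and 0 *in vitro* (background 0%). Both comparisons pooled over the 4 LCM groups, of culture and of stage, also called 0 (background 0% each), as did the test of whether the culture effect differed between primary and primordial oocytes (background 0.104%). At an unadjusted p under 0.05, 3 of the 9 genes passed in MII oocytes, where 10.2% of all genes passed, and 0 passed in the other 7 comparisons, where 9.66% to 12.4% of all genes did. Every one of the 9 genes had at least 10 counts in total and was tested in all comparisons. DESeq2 called 1 dormancy gene in 1 comparison, *Tsc1* between primary and primordial oocytes *in vitro*, and limma on log2 TPM called 0 in each comparison. The median log2 fold change over all genes was 0.44 in primary oocytes in culture, 0.44 between stages *in vitro* and 0.91 for the difference of culture effects, and DESeq2's size factors moved it by -0.27, -0.22 and -0.31. With a spread this large between LCM libraries, the 95% intervals of the log2 fold changes are wide, and a missing call does not show that a gene was expressed alike. Lower RNA of a gene per oocyte and fewer oocytes with that RNA cannot be told apart in such bulk libraries, and since the labels do not say whether the replicates came from separate animals, p-values measure the spread between these libraries only.

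**Figure D1:**
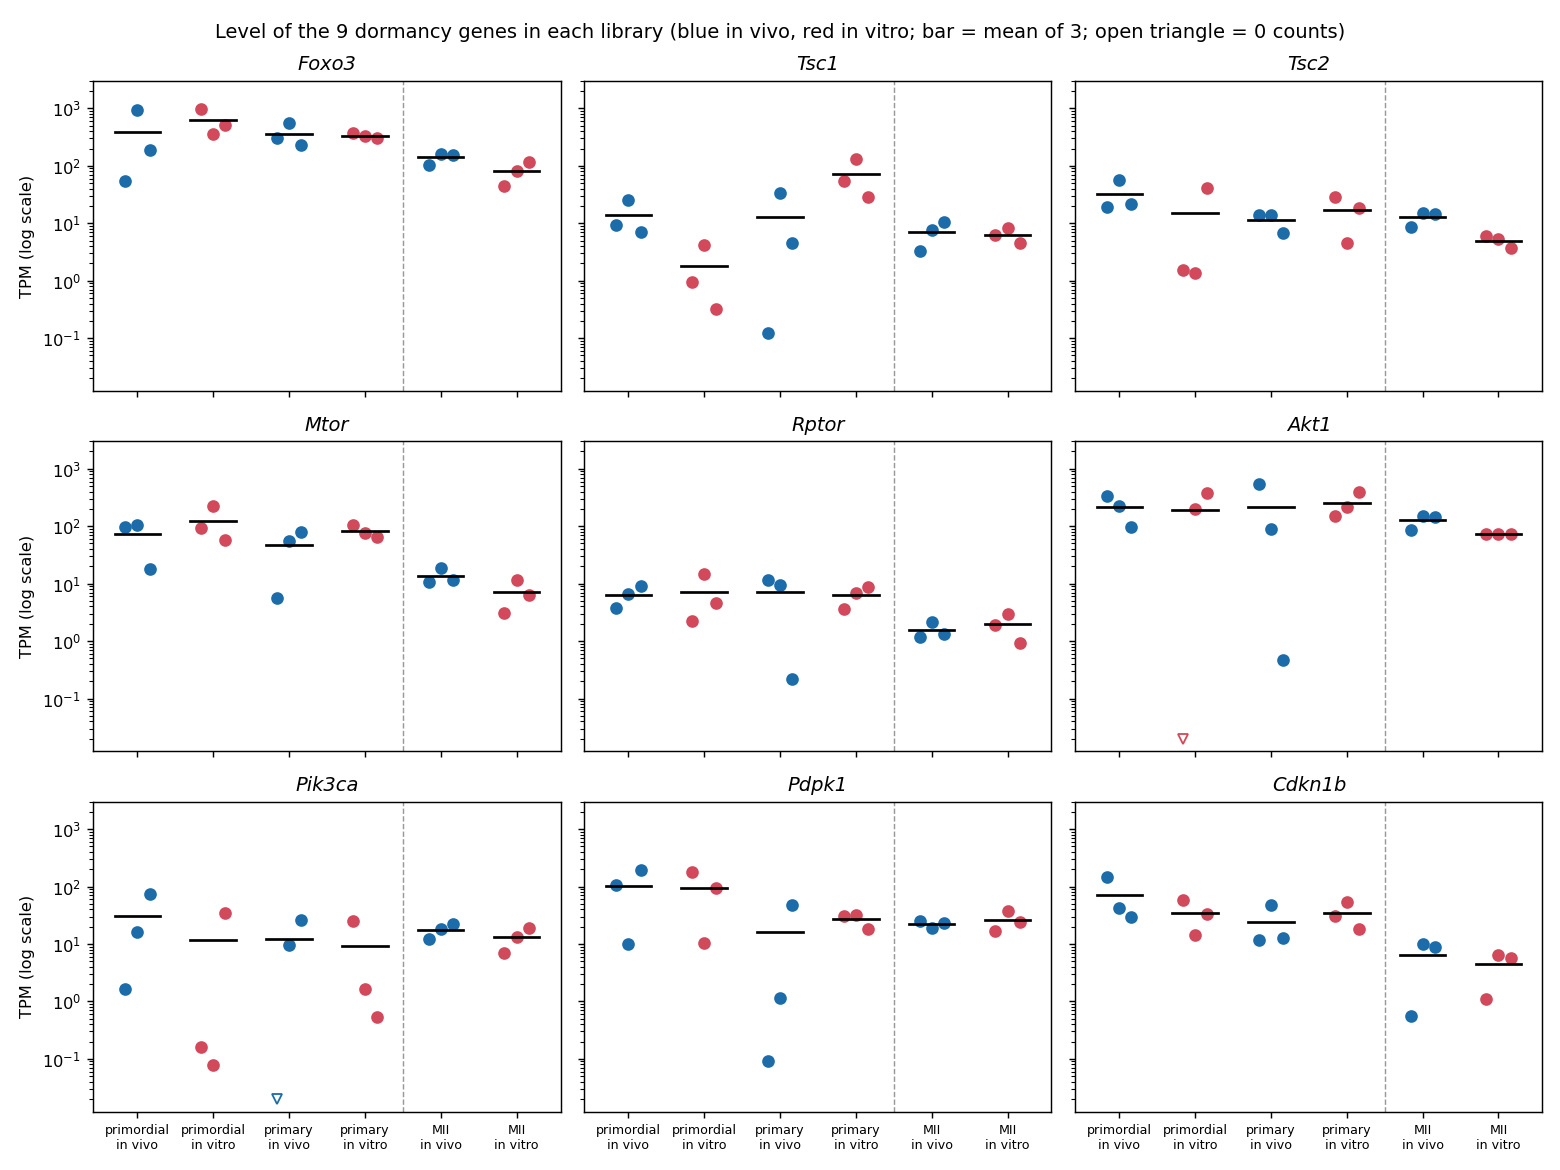
TPM of each dormancy gene on a log scale in the 18 libraries, by group, with 3 points and their mean as a bar in each group. *Foxo3* sits at or above 44.1 TPM in every library, whereas *Akt1* and *Pik3ca* each reach 0 counts in 1 LCM library (open triangles). The dashed line separates the LCM groups on the left from the MII groups on the right.

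*Foxo3*, the forkhead transcription factor that keeps primordial oocytes dormant, was the most abundant of the 9 genes in all 6 groups by mean TPM. It lies on chromosome 10 from 42181841 to 42276755 on the minus strand (GRCm38, the build of the deposited counts), and no annotated gene overlaps it. Among primordial oocytes its level was 54.7, 922 and 189 TPM in the *in vivo* libraries and 996, 359 and 512 TPM in the *in vitro* libraries. Primary oocytes had 300, 567 and 228 TPM *in vivo* and 379, 328 and 304 TPM *in vitro*. The highest and the lowest LCM value thus both belong to primordial oocytes, and all 4 LCM groups overlapped one another in TPM. By mean ± SD the order ran from primordial *in vitro* (622 ± 333 TPM, n = 3) through primordial *in vivo* (389 ± 467), primary *in vivo* (365 ± 178) and primary *in vitro* (337 ± 38.6) to MII *in vivo* (142 ± 33.0) and MII *in vitro* (80.6 ± 36.6). Of the 5 pairs of neighbours in this order, 4 overlapped, and only primary *in vitro* and MII *in vivo*, which differ in library preparation too, did not. In primordial *in vitro* oocytes only 0.942% of all genes had a higher mean TPM, and in MII *in vitro* oocytes 5.77% did.

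*Foxo3* was also among the least variable genes of the LCM libraries. Its own biological coefficient of variation was 1.48 against a median of 2.23 over all genes, and 0.757% of genes had a lower one. Its log2 fold change in culture was 0.89 (SE 1.38, 95% interval -1.82 to 3.59, adjusted p = 0.909) in primordial oocytes and -0.39 (SE 1.37, interval -3.08 to 2.30, adjusted p = 1) in primary oocytes. The former ran from 0.31 without primordial *in vitro* replicate 1 to 2.20 without primordial *in vivo* replicate 2, and the latter from -0.69 without primary *in vivo* replicate 3 to -0.05 without primary *in vivo* replicate 2. The difference between these effects was -1.28 (SE 1.94, adjusted p = 1). From the primordial to the primary stage it differed by 0.09 *in vivo* (SE 1.37, adjusted p = 1) and by -1.19 *in vitro* (SE 1.39, adjusted p = 0.895) on the log2 scale. In CPM (counts scaled to library size after TMM normalization) the primary *in vitro* libraries all lay below the primordial *in vitro* ones, a separation that 11.2% of all genes showed between these groups in one direction or the other. The direction *in vivo* rested on single libraries and ran from -0.42 without primordial *in vivo* replicate 1 to 1.3996 without primordial *in vivo* replicate 2.

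*Cdkn1b*, on chromosome 6 from 134920401 to 134925513 on the plus strand, was above 3 counts in all 18 libraries, and its lowest LCM library held 298 counts. Primordial oocytes had 146, 41.6 and 29.5 TPM *in vivo* and 58.5, 14.2 and 32.8 TPM *in vitro*, and primary oocytes had 11.7, 47.6 and 12.8 TPM *in vivo* and 30.5, 53.5 and 18.04 TPM *in vitro*. Apart from primordial *in vivo* replicate 1, the LCM libraries lay between 11.7 and 58.5 TPM and all groups overlapped. The mean level was 72.4 ± 64.1 TPM in primordial *in vivo*, a mean raised by that library, 35.2 ± 22.3 in primordial *in vitro*, 24.0 ± 20.4 in primary *in vivo* and 34.0 ± 17.99 TPM in primary *in vitro* oocytes. The MII groups were lower, at 6.49 ± 5.16 TPM *in vivo* and 4.44 ± 2.92 TPM *in vitro*, and MII *in vivo* replicate 1 had only 9 counts. In every LCM library except primordial *in vivo* replicate 1, *Foxo3* exceeded *Cdkn1b* in TPM, with a median ratio of 16.2 over the 12 libraries.

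*Tsc1* and *Tsc2* encode the scaffold and the catalytic subunit of the brake on mTOR complex 1. *Tsc1* lies on chromosome 2 from 28641228 to 28691167 on the plus strand, and *Tsc2* on chromosome 17 from 24595816 to 24632630 on the minus strand. *Tsc2* shares 693 exonic bases, 7.20% of its exons, with *Pkd1* on the opposite strand, and since neither the labels nor the methods say whether the counting used strand, *Tsc2* counts may hold reads of *Pkd1*, which had 32638 counts in the LCM and 275 in the MII libraries in all.

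Over the 5 comparisons of single groups, the largest log2 fold change of any of the 9 genes was that of *Tsc1* between the stages *in vitro* (5.18). It was not the largest in each comparison, since *Tsc2* led in MII oocytes (-1.21) and *Pdpk1* between the stages *in vivo* (-3.01). Primordial oocytes had 9.36, 25.7 and 7.16 TPM of *Tsc1* *in vivo* and 0.949, 4.12 and 0.328 TPM *in vitro*. Primary oocytes had 0.122, 33.5 and 4.46 TPM *in vivo* and 53.8, 132 and 28.2 TPM *in vitro*. All 3 cultured primordial libraries lay below the 3 not cultured, all 3 cultured primary libraries lay above the cultured primordial ones, and the primary *in vivo* libraries spread across both. Groups that do not overlap in CPM are common here, since 6.59% of all genes did not overlap between the primordial groups and 11.2% between the *in vitro* groups.

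The log2 fold change of *Tsc1* from primordial to primary oocytes *in vitro* was 5.18, or 36.2-fold (SE 2.999, 95% interval -0.70 to 11.1, adjusted p = 0.505). The 3 primary libraries averaged 246 ± 232 CPM (SD, n = 3) and the 3 primordial ones 6.79 ± 7.52 CPM. DESeq2 put nearly the same value, 5.00, past the threshold (adjusted p = 0.0452), whereas the adjusted p of the other alternatives ran from 0.333 to 0.901. The log2 fold change was 4.06 without primary *in vitro* replicate 2 and 6.61 without primordial *in vitro* replicate 2, the extremes of the fits that left out 1 library. In primordial oocytes *Tsc1* differed by -2.83 in culture (SE 2.69, adjusted p = 0.718), and in primary oocytes by 2.49 (SE 2.65, adjusted p = 0.888). With 1 library left out the former ran from -4.26 (without primordial *in vitro* replicate 2) to -2.27, and the latter from 1.37 (without primary *in vitro* replicate 2) to 5.01 (without primary *in vivo* replicate 2). The test of the difference between these culture effects gave 5.32 on the log2 scale (SE 3.78, adjusted p = 0.686), so the opposite directions were not shown to differ. *In vivo*, *Tsc1* differed by -0.14 between the stages (SE 2.51, adjusted p = 1), and the sign changed when single libraries were left out. Of 12 granulosa cell markers, 7 were above 3 counts in all 3 primary *in vitro* libraries and 3 in all primordial *in vitro* ones. Their sums overlapped, at 1193 to 2595 TPM and 337 to 2155 TPM. *Foxl2* (mean 208 against 385 TPM) and *Wt1* (324 against 546 TPM) were lower in the primary group. Higher there were *Inha* (796 against 43.3 TPM), *Fst* (159 against 23.4 TPM), *Amhr2* (81.0 against 15.0 TPM), *Nr5a1*, *Kitl*, *Inhba* and *Amh*. *Fshr* was at 0 in both groups, *Cyp19a1* and *Hsd17b1* in the primordial one, and the part of these cells in the *Tsc1* values was not tested.

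*Tsc2* was less clearly ordered. Its level was 19.0, 57.1 and 21.3 TPM in primordial *in vivo* and 1.54, 1.34 and 42.0 TPM in primordial *in vitro* libraries, so a single cultured library carried most of that group's mean. Primary oocytes had 14.1, 14.1 and 6.66 TPM *in vivo* and 29.2, 4.52 and 18.3 TPM *in vitro*, and these groups overlapped.

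Within a library, the partners of the TSC complex were not at a fixed ratio. *Tsc1* was below *Tsc2* in all 3 primordial *in vivo* libraries, at 0.493, 0.450 and 0.336 of its TPM, and above it in all 3 primary *in vitro* libraries, at 1.84, 29.3 and 1.54. The remaining LCM groups spread from 0.00781 to 3.07 in primordial *in vitro* and from 0.00864 to 2.37 in primary *in vivo* oocytes. In MII oocytes the ratio was 0.390, 0.502 and 0.738 *in vivo* and 1.06, 1.52 and 1.22 *in vitro*, so it lay below 1 in all 3 libraries of the former group and above 1 in all 3 of the latter. Of the partners, *Tsc2* alone already separated the MII groups (mean 12.6 TPM *in vivo* and 5.01 TPM *in vitro*), whereas *Tsc1* overlapped (7.15 and 6.34 TPM). These ratios were looked at after the single genes and are given without a test. How many pairs of genes separate the groups as well was not measured, and 16.2% of single genes separated the MII groups in CPM.

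**Figure D2:**
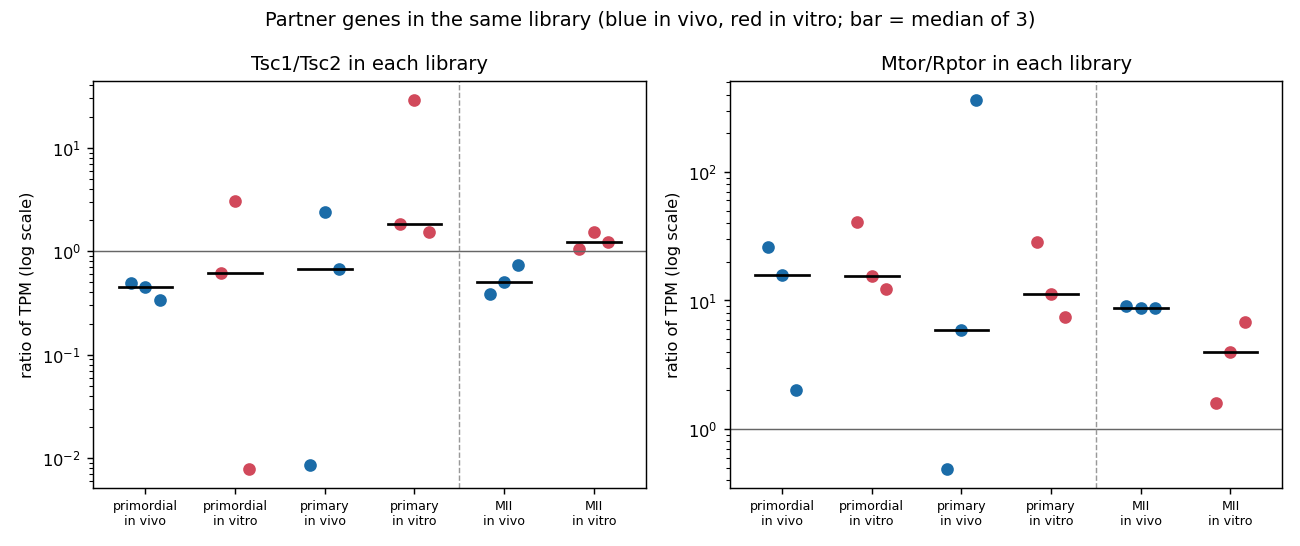
Ratio of TPM of *Tsc1* to *Tsc2* (left) and of *Mtor* to *Rptor* (right) in each library on a log scale, with the median of 3 libraries as a bar. *Tsc1* exceeds *Tsc2* in every primary *in vitro* and MII *in vitro* library, and *Mtor* exceeds *Rptor* in all libraries but primary *in vivo* replicate 1.

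The genes that promote activation begin with *Pik3ca*, on chromosome 3 from 32397671 to 32468486 on the plus strand. Its level spread widely within LCM groups, where the highest library exceeded the lowest by 46.2 to 455-fold in the 3 groups without a 0. *In vivo*, primordial oocytes had 1.62, 15.97 and 74.8 TPM and primary oocytes 0, 9.66 and 26.5 TPM. *In vitro*, primordial oocytes had 0.163, 0.0775 and 35.3 TPM and primary oocytes 25.1, 1.66 and 0.534 TPM. Primary *in vivo* replicate 1 had 0 counts, which allows up to 0.118 CPM by the floor of 3 counts, a limit that covers counting error only. At a floor of 10 counts *Pik3ca* was detected in 9 of the 12 LCM libraries, whereas all 6 MII libraries held 264 to 689 counts.

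*Pdpk1*, the kinase that activates AKT, lies on chromosome 17 from 24073680 to 24150924 on the minus strand. Primordial oocytes had 106, 9.84 and 192 TPM *in vivo* and 177, 10.3 and 94.7 TPM *in vitro*. Primary oocytes had 0.0921, 1.15 and 46.8 TPM *in vivo* and 31.2, 31.4 and 18.3 TPM *in vitro*. Both primordial groups held 1 library near 10 TPM and 2 of 94.7 TPM or more, a level that no primary library reached.

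Pooled over culture, *Pdpk1* differed by -2.55 on the log2 scale, a 5.85-fold lower level in primary oocytes (SE 1.48, 95% interval -5.46 to 0.36, adjusted p = 0.512). The difference was -3.01 *in vivo* (SE 2.14, adjusted p = 0.576) and -2.09 *in vitro* (SE 2.06, adjusted p = 0.820). The pooled direction held in all 12 fits that left out 1 library, from -4.83 without primary *in vivo* replicate 3 to -2.01 without primordial *in vivo* replicate 3. The same libraries set the range *in vivo*, from -7.57 to -1.92, and *in vitro* the value ran from -2.63 to -1.17, the latter without primordial *in vitro* replicate 1. Endothelial and blood cell markers did not overlap between the stages *in vivo*, with a sum of 1226 to 7508 TPM in primary and 0.154 to 415 TPM in primordial libraries. Most of the primary sum was hemoglobin RNA, with a mean of 2897 TPM for *Hba-a1* and 778 TPM for *Hbb-bs*. *In vitro* the sums overlapped, at 0.138 to 174 TPM in primary and 21.3 to 566 TPM in primordial libraries. In both *in vivo* groups 5 of the 8 markers were above 3 counts in some library, *Pecam1* and *Ptprc* were at 0, and the part of such cells in the *Pdpk1* values was not tested.

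*Akt1*, the kinase at the centre of the pathway, lies on chromosome 12 from 112653821 to 112674884 on the minus strand and was the next most abundant member after *Foxo3* by mean TPM in every group. Primordial oocytes had 330, 225 and 95.9 TPM *in vivo* and 0, 200 and 380 TPM *in vitro*, and primary oocytes had 551, 90.0 and 0.477 TPM *in vivo* and 149, 219 and 399 TPM *in vitro*. Primordial *in vitro* replicate 1 thus had 0 counts, which allows up to 0.198 CPM, in the same library in which *Foxo3* reached its highest value. Primary *in vivo* replicate 3 had 10 counts of *Akt1*. Apart from these, the LCM libraries held 2694 to 15684 counts.

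*Mtor*, on chromosome 4 from 148448611 to 148557683 on the plus strand, had at least 394 counts in every LCM library. Its level was 95.7, 106 and 17.99 TPM in primordial *in vivo*, 91.7, 228 and 57.0 TPM in primordial *in vitro*, 5.61, 55.9 and 79.6 TPM in primary *in vivo* and 103.4, 76.8 and 65.0 TPM in primary *in vitro* libraries, with all groups overlapping. *Rptor*, on chromosome 11 from 119602905 to 119899576 on the plus strand, was the lowest or next to lowest of the 9 genes by mean TPM in each group. Its group means lay between 6.42 and 7.24 TPM in the LCM groups and at 1.55 and 1.95 TPM in MII oocytes. *Mtor* exceeded *Rptor* in 17 of the 18 libraries, by a median of 13.8 in the LCM libraries and 7.80 in the MII libraries. In MII oocytes this ratio was 9.02, 8.77 and 8.74 *in vivo* and 1.60, 3.96 and 6.86 *in vitro*.

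MII oocytes allowed a finer comparison, since their libraries were more alike. Of the 9 genes, 7 were lower *in vitro* and 2 higher, with a median log2 fold change of -0.53 against 0.04 over all 17144 genes tested. In size these changes were not large, with a median absolute log2 fold change of 0.53 against 0.65 over all genes. Nor did the pathway as a whole go this way. Of 99 other pathway genes tested, from the list described below, 54 were higher *in vitro*, with a median log2 fold change of 0.14. *Tsc2* had 8.60, 15.0 and 14.3 TPM *in vivo* and 5.90, 5.40 and 3.73 TPM *in vitro*, with no overlap. In CPM it averaged 45.0 ± 8.70 *in vivo* and 19.4 ± 7.58 *in vitro* (SD, n = 3). Its log2 fold change was -1.21 (SE 0.42, 95% interval -2.12 to -0.30), with an adjusted p of 0.387.

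*Foxo3* in MII oocytes was 104, 164 and 157 TPM *in vivo* and 44.1, 80.4 and 117 TPM *in vitro*, and the groups overlapped through the highest *in vitro* and the lowest *in vivo* library. After TMM scaling they no longer did, at 397 ± 57.4 and 230 ± 84.0 CPM. The log2 fold change was -0.79 (SE 0.34, interval -1.53 to -0.05, adjusted p = 0.468). *Mtor* had 10.6, 18.8 and 11.7 TPM *in vivo* and 3.09, 11.8 and 6.40 TPM *in vitro*, overlapping by a single library, and its log2 fold change was -0.97 (SE 0.43, interval -1.90 to -0.04, adjusted p = 0.474). *Akt1* was 84.9, 150 and 144 TPM *in vivo* and nearly constant *in vitro* at 73.9, 74.1 and 73.5 TPM. In CPM it was not, at 148.3, 101.2 and 110.1 *in vitro*, and the groups overlapped there through the lowest *in vivo* library at 147.8. Its log2 fold change was -0.68 (SE 0.33, interval -1.38 to 0.03, adjusted p = 0.502).

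Of the 9 genes, 3 did not overlap between the MII groups in CPM (*Foxo3*, *Tsc2* and *Mtor*), as did 16.2% of all genes. In *Pik3ca*, *Cdkn1b*, *Tsc1*, *Rptor* and *Pdpk1* the MII groups overlapped in both units. The log2 fold change was -0.42 for *Pik3ca* (interval -1.24 to 0.39), -0.53 for *Cdkn1b* (interval -2.32 to 1.26) and -0.07 for *Tsc1* (interval -1.04 to 0.91). The 2 genes higher *in vitro* were *Rptor*, by 0.40 (interval -0.90 to 1.70), and *Pdpk1*, by 0.21 (interval -0.52 to 0.94). With 1 library left out, *Cdkn1b* ran from -1.06 without MII *in vivo* replicate 1 to -0.08 without MII *in vivo* replicate 2, *Pik3ca* from -0.76 to -0.22 and *Rptor* from 0.16 to 0.74. For all of the 9 but *Tsc2* and *Cdkn1b* the interval lay within a 4-fold change in either direction, whereas in the LCM comparisons no gene's interval did. Granulosa cell markers summed to 27.5 to 72.7 TPM *in vivo*, with 8 of 12 at 0, and to 25.1 to 55.0 TPM *in vitro*, with 5 of 12 at 0, and *Foxl2* was at 0 in both. The sums of oocyte markers did not overlap, at 15707 to 20954 TPM *in vivo* and 10438 to 15661 TPM *in vitro*. Most of the sum was *Gdf9* (mean 11296 TPM *in vivo* and 6713 TPM *in vitro*) and *Oosp1* (4945 and 4366 TPM). Single markers went both ways. *Ddx4*, *Bmp15*, *Zp2*, *Zp3*, *Sohlh1*, *Figla* and *Nobox* had a higher mean *in vitro*, and *Gdf9*, *Oosp1*, *Dazl*, *Zp1*, *Npm2* and *Kit* a lower one. The part of oocyte content in the lower dormancy gene values *in vitro* was not tested. The mitochondrial share of counts overlapped between the groups too, from 0.907% to 5.11% *in vivo* and from 1.73% to 8.15% *in vitro*, and its part in the values was not tested.

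**Figure D3:**
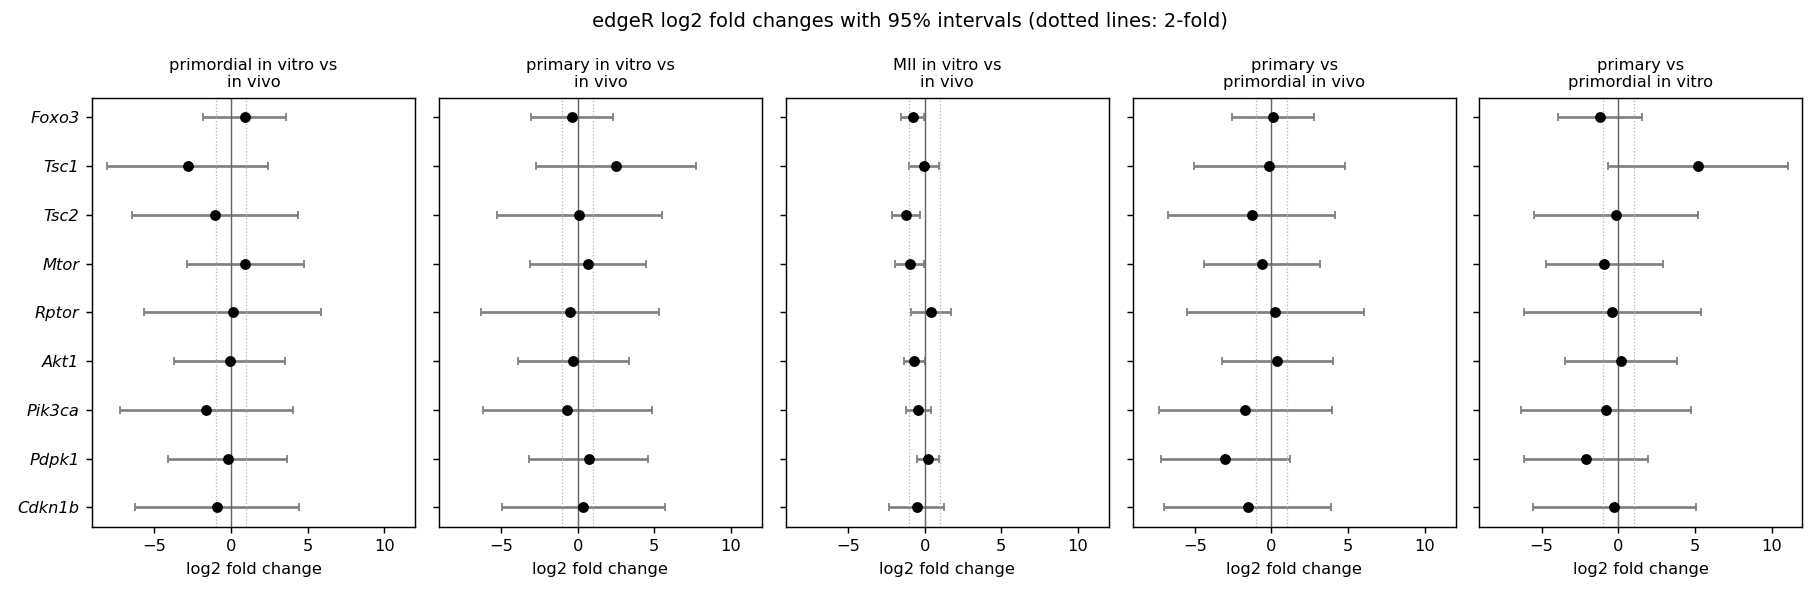
Log2 fold change of each dormancy gene (point) with its 95% interval (bar) in 5 comparisons, from edgeR's quasi-likelihood fits, with dotted lines at a 2-fold change. The intervals in MII oocytes exclude 0 only for *Tsc2*, *Foxo3* and *Mtor*, none of which passed after adjustment over all genes, and in the LCM comparisons every interval spans 0.

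Several of the 9 genes belong to small families, and *Foxo3* was the leading forkhead box O gene of LCM oocytes. It was the highest of *Foxo1*, *Foxo3*, *Foxo4* and *Foxo6* in 11 of the 12 LCM libraries, with a median share of 92.7% of their summed TPM. The exception was primordial *in vivo* replicate 1, where *Foxo4* was highest and *Foxo3* held 28.997%. In MII oocytes *Foxo1* was highest in 5 of 6 libraries, at 66.9 to 191 TPM against 0.554 to 54.0 TPM in the LCM libraries, and the share of *Foxo3* was 31.5% to 59.7%. Of the exons of *Foxo1*, 7.78% overlap a gene on the opposite strand.

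*Pik3ca* was highest among the catalytic subunits in 2 LCM libraries, primordial *in vivo* replicates 2 and 3, and in no MII library. *Pik3cd*, better known from immune cells, led in 8 of 12 LCM and in all 6 MII libraries, and had 21.7 to 87.6 TPM in the latter. It led in no primordial *in vivo* library, and its mean in that group was 2.03 TPM. *Pik3cb* led in replicate 1 of both primordial groups. Among *Cdkn1a*, *Cdkn1b* and *Cdkn1c*, *Cdkn1b* led in 10 of 12 LCM libraries, with a median share of 99.2% over the 12. Both others were *in vivo* primordial libraries, replicates 2 and 3, where *Cdkn1c* was higher and *Cdkn1b* held 26.6% and 14.1%. A gene on the opposite strand overlaps 30.7% of the exons of *Cdkn1c*, and another 7.68% of those of *Cdkn1a*, so reads of these genes may be counted with theirs. In MII oocytes its share lay between 6.84% and 56.3%, and *Cdkn1a* led in 3 libraries. *Rictor*, the scaffold of mTOR complex 2, exceeded *Rptor* in 10 of 12 LCM and in all 6 MII libraries, where *Rptor* made up 1.60% to 7.47% of their sum. Stage and library preparation cannot be told apart in any of these contrasts between LCM and MII oocytes.

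**Figure D4:**
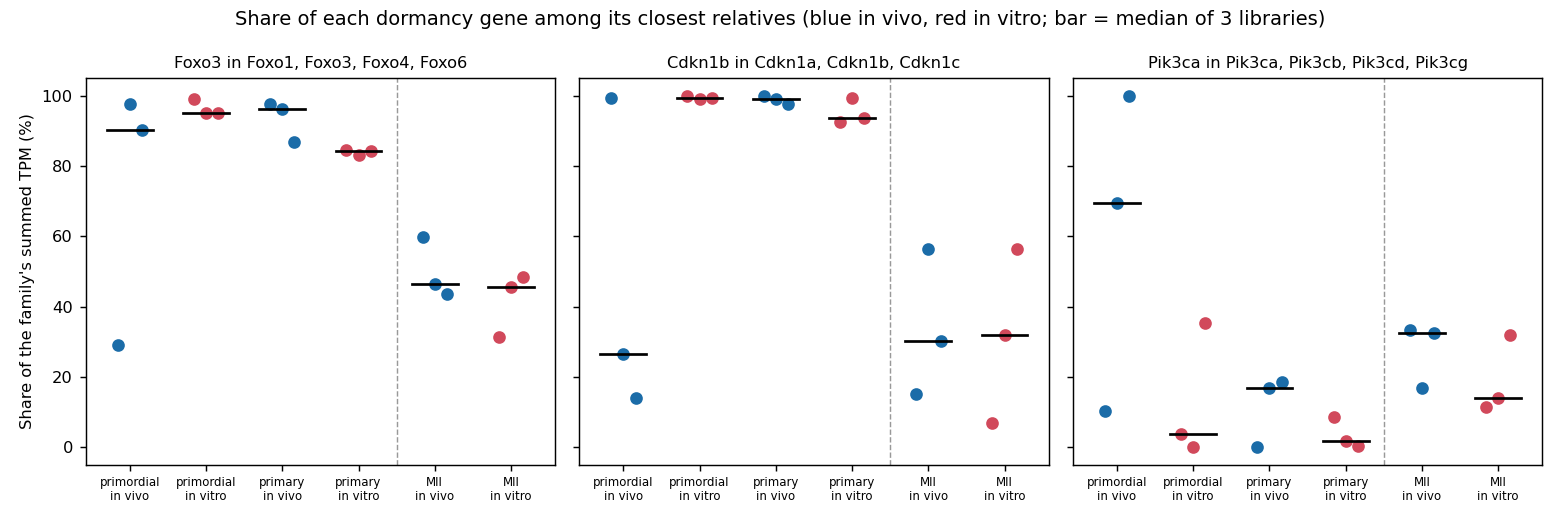
Share of *Foxo3*, *Cdkn1b* and *Pik3ca* in the summed TPM of their closest relatives, in percent, for each of the 18 libraries by group, with the median as a bar. *Foxo3* holds 83.2% or more in 11 of 12 LCM libraries and 59.7% or less in the MII libraries, and *Cdkn1b* leads its relatives in 10 of 12 LCM libraries and in 2 MII libraries. The LCM libraries in which *Cdkn1b* does not lead are primordial *in vivo* replicates 2 and 3.

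Other genes of the pathway were followed through a list of 110 genes in 10 groups by role, without the 9 above. Of these, 109 were tested in the LCM and 99 in the MII comparisons. In the 7 LCM comparisons 0 were called by edgeR, with 7 to 13 at an unadjusted p under 0.05. These are 6.42% to 11.9% of the list, against 9.66% to 12.4% of all genes, so the list lay near or below the background. In MII oocytes 1 was called, higher *in vitro* (background 0.35%), with 7 at an unadjusted p under 0.05, or 7.07% against 10.2% of all genes. The gene called was *Ccnd2*, which encodes cyclin D2, a partner of the kinases that p27 inhibits. It had 111, 128 and 63 counts *in vitro* and 1, 0 and 0 counts *in vivo*. Summed over each group, these gave a ratio of 284 after scaling (95% exact counting interval 50.5 to 11238). This interval covers counting error only and leaves out the spread between libraries. The levels of *Ccnd2* *in vitro* were low, at 2.79, 3.86 and 2.05 TPM. Its log2 fold change was 7.68 (SE 1.11, adjusted p = 0.00802), and the call was lost in limma on log2 TPM and in 4 of the 6 fits that left out 1 library. Genes on the opposite strand overlap part of its exons. Of the granulosa cell markers, *Inha* (1.65 TPM), *Inhba* (1.32 TPM), *Hsd17b1* and *Amh* were above 0 in MII oocytes only *in vitro*. *Fshr* had a higher mean there too (3.54 against 1.09 TPM), whereas *Cyp19a1* (33.3 against 40.6 TPM), *Kitl* and *Wt1* had a lower one. The remaining markers were at 0 in both groups, and the part of such cells in the *Ccnd2* counts was not tested.

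By level, the most abundant members in LCM libraries of the roles reported here were as follows. Among receptors and adaptors *Igf1r*, the receptor of insulin-like growth factor 1, led with a mean of 92.4 ± 50.6 TPM (SD, n = 12), and it ranged from 22.9 to 174 TPM. Among phosphatases *Ppp2r1a*, the scaffold of protein phosphatase 2A, led with 299 ± 172 TPM, and among mTORC1 targets *Eif4b*, a translation initiation factor, with 463 ± 260 TPM. The remaining leaders were at 0 in at least 1 LCM library, as *Akt1* and *Pik3ca* were. They were *Pik3cd* (72.6 ± 74.6 TPM), *Cited2* (141 ± 153), *Mapkap1* of mTOR complex 2 (253 ± 406), the lysosomal GTPase gene *Rraga* (213 ± 178), *Stk11*, which encodes the kinase LKB1 upstream of AMPK (50.03 ± 99.5), and *Cks1b* (129 ± 287).

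In MII libraries, the leaders were *Cks1b*, which encodes a binding partner of cyclin-dependent kinases (1255 ± 367 TPM, n = 6), and *Rragc*, a lysosomal GTPase gene that signals amino acids to mTORC1 (530 ± 104). Next came *Prkab1* of AMPK (374 ± 87.3), *Deptor*, an inhibitor of mTOR (209 ± 47.7), *Ppp2r1a* (190 ± 77.1), *Mdm2* (184 ± 66.9) and *Foxo1* (126 ± 50.1). *Eif4e*, which encodes the cap-binding protein (113 ± 47.9), *Nras* (67.8 ± 29.3) and *Pik3cd* (52.9 ± 24.8) completed the list. Each of these was above 21 TPM in all 6 libraries. *Foxo1*, *Deptor*, *Rragc* and *Stk11* share 3.41% to 7.90% of their exonic bases with a gene on the opposite strand. How many of their reads came from these bases was not measured.

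Detection separated the 2 kinds of library. Of the 9 dormancy genes, 7 were above 3 counts in all 12 LCM libraries, as were 34.8% of the 4716 genes with a mean count at least that of *Rptor*, the dormancy gene with the fewest counts. All 9 were above 3 counts in the 6 MII libraries, as were 60.6% of all genes tested there. Of the 8 energy sensing genes, which include the AMPK subunits, 0 were above 3 counts in all LCM libraries, as were 12.2% of all genes tested there. All 8 were above 3 counts in all MII libraries. Every other role of the list went the same way, as with the mTOR complex subunits, at 1 of 8 and 6 of 8. Within LCM groups the highest library exceeded the lowest by 1.25 to 16.9-fold for *Foxo3* and by up to 508-fold for *Pdpk1*, whereas in MII groups the same ratio was 1.58 to 2.66 for *Foxo3* and at most 2.25 for *Pdpk1*. *Cdkn1b* went the other way, with a ratio of 2.97 to 4.96 in LCM groups and of 5.94 and 17.9 in the MII groups.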

How the data were processed

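RNA-seq of 18 mouse oocyte libraries was analysed from 2 tables. Per the submitters' notes and the study's methods, reads were trimmed with Trim Galore 0.4.1, aligned with TopHat2 to mm10 and counted per gene with featureCounts, and strand use is not given in the sources used here. The authors deposited raw read counts, and TPM values for part of the genes, normalized for gene length and depth. All columns were mapped by their labels. Counts were tested with edgeR 4.0.16 (R 4.3.3): TMM scaling, genes with at least 10 counts in total, glmQLFit (robust) and glmQLFTest, with 1 model for the 12 LCM libraries and 1 for the 6 MII libraries, and the script was tested on simulated data. SEs are the log2 fold change over the square root of F, and 95% intervals use the fit's total degrees of freedom. Levels are TPM, and differences are from counts. Coordinates and overlaps come from GENCODE release 21 (GRCm38), by Ensembl identifier. Named genes were the 9 members, list genes that passed, those most abundant per role and cell type, and those most like *Foxo3*. The result of 1 gene that this rule names is not reported here. Relatives of members and ratios of partners were chosen after values were seen. The members and lists were chosen with earlier results of these data known. Alternatives were DESeq2 1.42.0, its size factors, 2 count filters, a replicate block, no fold threshold, limma 3.58.1 on log2(TPM + 1) and log2(TPM + 0.1), fits of 2 groups, and leaving out each library. Floors cover counting error only, as reads carry no molecular identifiers.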

Additional observations from a re-analysis of the deposited data

How the results depend on the processing

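The count of dormancy genes called stayed at 0 in all 8 comparisons under every alternative run, except that DESeq2 called 1 between primary and primordial oocytes *in vitro*. Log2 fold changes were recomputed for those given in the text. Tools disagreed on calls over all genes in the LCM libraries. DESeq2 called 812 and 254 genes between culture groups of primordial and primary oocytes, 351 in MII oocytes, 557 and 450 between stages *in vivo* and *in vitro*, 578 and 664 in the pooled comparisons of culture and stage, and 554 for the difference of culture effects, where edgeR called 5, 0, 60, 8, 0, 0, 0 and 16. With DESeq2's size factors edgeR called 1 gene in primary oocytes in culture, 17 in pooled culture (3 higher, 14 lower) and 24 in pooled stage. These factors moved the median log2 fold change of all genes by -0.27 in primary culture, -0.22 between stages *in vitro*, -0.13 in pooled culture and -0.31 in the difference. Without a low-count filter edgeR called 0 in primordial culture, 263 in MII, 0 between stages *in vivo* and 1 for the difference, and with a strict one 0, 44, 0 and 0, and 1 in pooled culture. In fits of 2 groups it called 9 in primordial culture, 5 in primary culture and 3 between stages *in vivo*. Limma on log2(TPM + 1) or log2(TPM + 0.1) called 0 in the LCM comparisons, and 29 and 42 in MII oocytes. The log2 fold change of *Tsc1* between stages *in vitro*, 5.00 in DESeq2, passed only there, and that of *Ccnd2*, 1.92 and 4.74 in limma, missed the threshold there.

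No pairing by the replicate numbers shared by the groups was detected. The deviations of same-numbered libraries correlated by -0.07 to 0.09 over 18 pairs of LCM libraries and by -0.02 to 0.02 over 3 pairs of MII libraries. With so few libraries per group, these correlations cannot decide whether same-numbered libraries share an origin, which the labels do not give. With the replicate number as a block, edgeR called 1 gene in primordial culture, 85 in MII oocytes, 0 between stages *in vivo*, 0 for the difference and 0 dormancy genes in each comparison.

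Leaving out 1 library moved the count over all genes to 0 to 3 in primordial culture, 0 to 1 in primary culture, 11 to 378 in MII oocytes, 0 to 11 between stages *in vivo*, 0 to 15 in pooled culture, 0 to 19 in pooled stage and 0 to 20 for the difference. Log2 fold changes that changed sign were those of *Tsc1* in MII oocytes (-0.36 to 0.27), *Pdpk1* in MII oocytes (-0.0058 to 0.41), and between stages *in vivo* *Foxo3* (-0.42 to 1.3996) and *Tsc1* (-2.66 to 0.44). *Ccnd2* ranged from 7.18 to 9.63.

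Ranked by CPM, which is not scaled for gene length, 4, 6, 3, 3, 9 and 5 of the 9 dormancy genes kept their place in the order by mean TPM in primordial *in vivo*, primordial *in vitro*, primary *in vivo*, primary *in vitro*, MII *in vivo* and MII *in vitro* oocytes. A floor of 10 in place of 3 counts lowered the number of libraries with *Pik3ca* from 17 to 15, with *Akt1* from 17 to 16, and with *Tsc1*, *Pdpk1* and *Cdkn1b* from 18 to 17. Intervals were wider in LCM than in MII libraries, although LCM libraries held more counts.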

Other observations

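The genes whose pattern across all 18 libraries was most like that of *Foxo3* were *Glud1*, which encodes mitochondrial glutamate dehydrogenase, *Atp2b1*, which encodes a calcium pump of the plasma membrane, and *Aak1*, which encodes a kinase of clathrin-coated vesicles. They were chosen by Pearson's correlation of log2(CPM + 1) after TMM scaling, among 8535 genes with at least 10 counts in at least 9 libraries, and their r was 0.86, 0.83 and 0.82. The 18 points share 2 library preparations, and r within the 12 LCM libraries was 0.86, 0.79 and 0.78. Within the 6 MII libraries it was 0.53, 0.47 and 0.21. By level they stood below *Foxo3*, at a mean of 278, 113 and 16.6 TPM in the LCM libraries and 40.2, 31.9 and 1.04 TPM in the MII libraries.

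Among the dormancy genes themselves, the highest correlation over the 12 LCM libraries was that of *Rptor* with *Akt1* (r = 0.74) and the lowest that of *Tsc2* with *Mtor* (r = -0.48). Over the 6 MII libraries the same pairs had r = -0.03 and r = 0.55. In the MII libraries the highest was that of *Tsc2* with *Akt1* (r = 0.95, and 0.52 in the LCM libraries) and the lowest that of *Akt1* with *Pdpk1* (r = -0.77, and -0.39). *Foxo3* with *Akt1* had r = -0.25 in the LCM and r = 0.62 in the MII libraries, and the complex partners *Tsc1* and *Tsc2* r = 0.03 and r = 0.39. These are descriptions of a few libraries that differ in depth and content.

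Marker levels differed between single LCM libraries. *Acta2*, a smooth muscle gene, ranged from 0.119 to 18521 TPM with a median of 70.7 TPM, and *Hba-a1*, a hemoglobin gene, from 0 to 7503 TPM with a median of 0.153 TPM. The highest *Acta2* was in primary *in vivo* replicate 2 and the highest *Hba-a1* in primary *in vivo* replicate 1, the library with the fewest genes detected (4842) and with 0 counts of *Pik3ca*. *Ddx4*, the most abundant oocyte marker of the LCM libraries, ranged from 5.06 to 1011 TPM, and *Wt1*, a gene of granulosa cells, from 2.43 to 1154 TPM. In MII libraries *Gdf9*, an oocyte growth factor, was at 4976 to 14549 TPM, and the highest granulosa cell, stroma or theca cell and endothelial or blood cell markers were *Cyp19a1* (mean 37.0 TPM), *Cyp11a1* (0.907 TPM) and *Pecam1* (56.8 TPM).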
